A study of Mus musculus with 28 samples.

Results

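YAP and TAZ are transcriptional co-activators that link a cell's adhesion and mechanical tension to gene expression, and the genes described here are a set of 9 that cover this axis: Yap1 and Wwtr1 (which encodes TAZ), their DNA-binding partner Tead1, the target genes Ccn1 and Ccn2, the adhesion genes Fermt2 and Tm4sf1, and the contractile genes Cald1 and Myh10. They are 9 of the 17097 genes named by the arrays. Several of them were chosen because their values were lower with Nrp1 deletion in both tumour models. The genotype differences of these 9 genes are therefore given below as a description with no test. The change of that difference between days is built from the same values, so its tests are given without a conclusion. Each gene was read from its brightest probe set over all 28 arrays.

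The samples were CD45+ cells, that is leukocytes, sorted from tumours grown in mice and lysed without culture, and their RNA was measured on Affymetrix arrays. The Nrp1-deleted mice were Nrp1L/LFoxp3Cre-YFP, in which Cre recombinase and YFP are made under Foxp3, the gene that defines regulatory T cells, so the floxed Nrp1 gene (neuropilin-1) is removed in those cells. The control mice were Foxp3Cre-YFP and carried the same Cre-YFP allele without the floxed gene. The tumours were B16.F10, a mouse melanoma line, or MC38, a mouse colon adenocarcinoma line. Arrays of B16 tumours came from an early time, from day 12 or from day 18, and those of MC38 tumours from day 6, 12 or 18. The early B16 time is day 8 in the sample titles and day 6 in the source names. B16 at day 18 and MC38 at day 12 had 3 arrays of each genotype, and the other 4 combinations of tumour and day had 2, which gives 12 groups in all. The labels do not say whether the arrays of a group came from separate mice or pools, and give no age, so the tests measure the spread between these arrays only.

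In cells with weak adhesion or high cell density, the Hippo kinases MST1/2 and LATS1/2 phosphorylate YAP and TAZ and keep them out of the nucleus. When adhesion and actomyosin tension are high, YAP and TAZ enter the nucleus, bind TEAD factors and switch on genes such as Ccn1 and Ccn2. This axis is best known in fibroblasts, endothelial, epithelial and tumour cells. Blood cells mainly use the kindlin encoded by Fermt3 and the nonmuscle myosin encoded by Myh9, in place of Fermt2 and Myh10.

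RefSeq promoter windows (mouse build GRCm38.p6, 250 bases before to 50 bases after the annotated start) were found for 7 of the 9 genes, 9 windows in all. They are shown because TEAD factors are the DNA-binding partners of YAP and TAZ, so that the presence of the core letters of the TEAD motif can be seen in members with different patterns, Myh10 among them. Capitals mark matches to the TEAD core (GGAATG or its reverse complement CATTCC, both strands searched), to the CArG box bound by serum response factor, and, in Ccn1, to the TATA box letters TATAAA (searched on the gene's strand). No capitals overlap. All windows read 5′ to 3′ on the gene's own strand. The Wwtr1 window is chr3:57575861-57576160, the Ccn1 window chr3:145649936-145650235 and the Fermt2 window chr14:45530016-45530315, all on the minus strand. The first of the Cald1 windows is chr6:34598254-34598553 and the Myh10 window is chr11:68691665-68691964, both on the plus strand.
Wwtr1: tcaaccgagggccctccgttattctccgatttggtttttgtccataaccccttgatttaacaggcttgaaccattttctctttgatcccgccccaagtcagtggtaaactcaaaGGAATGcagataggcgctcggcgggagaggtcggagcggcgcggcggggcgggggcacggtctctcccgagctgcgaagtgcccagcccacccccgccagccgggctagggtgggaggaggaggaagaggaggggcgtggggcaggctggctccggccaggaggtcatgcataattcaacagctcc
Ccn1: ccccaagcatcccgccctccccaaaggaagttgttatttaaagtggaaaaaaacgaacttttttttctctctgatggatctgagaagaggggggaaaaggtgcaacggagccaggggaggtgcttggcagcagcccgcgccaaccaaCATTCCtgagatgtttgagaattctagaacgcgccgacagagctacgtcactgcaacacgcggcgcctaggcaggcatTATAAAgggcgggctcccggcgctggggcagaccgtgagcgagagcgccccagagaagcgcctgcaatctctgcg
Cald1: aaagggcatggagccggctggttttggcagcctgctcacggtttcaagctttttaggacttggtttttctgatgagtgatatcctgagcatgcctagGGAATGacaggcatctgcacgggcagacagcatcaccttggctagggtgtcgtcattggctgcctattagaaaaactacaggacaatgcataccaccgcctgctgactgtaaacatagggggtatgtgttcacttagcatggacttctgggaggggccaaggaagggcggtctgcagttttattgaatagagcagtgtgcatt
Fermt2: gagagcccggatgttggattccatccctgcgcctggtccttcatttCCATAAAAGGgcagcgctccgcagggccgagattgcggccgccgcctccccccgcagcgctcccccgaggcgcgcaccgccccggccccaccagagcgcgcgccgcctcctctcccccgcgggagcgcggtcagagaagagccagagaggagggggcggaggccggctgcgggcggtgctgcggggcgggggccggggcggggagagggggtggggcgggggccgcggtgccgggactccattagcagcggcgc
Myh10: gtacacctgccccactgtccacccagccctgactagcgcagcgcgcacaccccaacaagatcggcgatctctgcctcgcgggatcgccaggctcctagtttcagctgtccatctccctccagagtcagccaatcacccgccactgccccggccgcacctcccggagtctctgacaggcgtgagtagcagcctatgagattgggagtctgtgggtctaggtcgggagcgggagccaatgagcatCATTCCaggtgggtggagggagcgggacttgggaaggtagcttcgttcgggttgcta

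The TEAD core was present in the windows of 5 of these 7 genes. In Wwtr1 it lay at bases -136 to -131 from the start, in Yap1 at -141 to -136, in Cald1 at -153 to -148, in Ccn1 at -103 to -98 on the opposite strand, and in Myh10 at -7 to -2 on the opposite strand. Of all 27025 genes with such a window, 16.6% held the TEAD core, and 14.7% of the 32851 windows did. Fermt2 had no TEAD core but had the CArG box at -204 to -195, which 1.81% of genes hold. The second Cald1 window held the AP-1 letters TGAGTCA (searched with TGACTCA) and TATAAA, found in 5.95% and 9.77% of genes. The Tm4sf1 window held none of these letters. A match is a description of the letters in this window.

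The values are log2 intensities, so a difference of 1 is a 2-fold change. The 28 arrays fell into 3 sets by their overall distribution of values: B16 day 18 with MC38 day 12, MC38 day 6 with day 18, and early B16 with B16 day 12. Within a set the quantiles of the arrays differed by at most 0.092 (root mean square), and between sets by 0.119 to 0.367, so levels in different sets are set side by side without a test. Pan-leukocyte markers such as Ptprc, the gene for CD45, were bright on every array, with a mean of 11.44 to 12.22. Nrp1 itself was lower in the Nrp1-deleted group, with no overlap between arrays, in 6 of 6 combinations of tumour and day, with log2 differences of -1.62 to -0.32. The arrays carry no detection calls. As a guide, the median value of an array is mostly background, at about 3.64 over all arrays.

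TAZ, encoded by Wwtr1 (chr3:57455644-57575910), was the only one of the 9 genes lower on every Nrp1-deleted array than on every control array of the same tumour and day in all 6 combinations; over all genes, 0.743% had that pattern. In B16 tumours at day 18, Wwtr1 read 3.33, 2.81 and 2.46 in Nrp1-deleted mice, against 6.38, 6.67 and 5.67 in control mice. This is a difference of -3.37, and since the Nrp1-deleted values lie at background, no fold is given for it. In MC38 tumours at day 6 it read 3.39 and 3.31 in Nrp1-deleted mice, against 6.14 and 5.32 in control mice. At day 12 in MC38 it read 4.96, 4.78 and 3.78 in Nrp1-deleted mice, against 6.19, 6.56 and 6.42 in control mice. At day 18 in MC38 it read 3.92 and 5.34 in Nrp1-deleted mice, against 6.08 and 6.15 in control mice. All MC38 controls were thus well above background, and the Nrp1-deleted MC38 arrays ranged from background at day 6 to intermediate levels later. Early B16 arrays read 3.62 and 3.21 in Nrp1-deleted mice, against 3.96 and 3.63 in control mice. B16 arrays of day 12 read 3.15 and 3.18 in Nrp1-deleted mice, against 3.52 and 3.99 in control mice. At both of these B16 times the gene was close to background in both genotypes, and the nearest early arrays of the genotypes read 3.62 and 3.63.

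YAP, encoded by Yap1 (chr9:7931999-8004638), was also lower in Nrp1-deleted mice in all 6 combinations, in 4 of them without overlap. In B16 tumours at day 18 it read 4.27, 4.27 and 3.60 in Nrp1-deleted mice, against 6.43, 6.50 and 6.10 in control mice, a difference of -2.30. Its differences were -0.90 at B16 day 12 and -0.82 and -0.93 at MC38 days 6 and 12, each without overlap. At MC38 day 6 the nearest Nrp1-deleted and control arrays read 3.65 and 3.72. The genotypes overlapped in early B16 tumours (-0.12) and at MC38 day 18 (-0.56), where Nrp1-deleted arrays read 3.73 and 4.68 and control arrays 5.03 and 4.49. The Wwtr1 differences were larger than those of Yap1 at each of the 3 MC38 times, without a test between them.

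Tead1 (chr7:112679356-112906784) encodes a factor that holds YAP and TAZ on DNA. In B16 tumours at day 18 it read 3.54, 3.66 and 3.62 in Nrp1-deleted mice, against 5.82, 5.98 and 5.25 in control mice, a difference of -2.08. In MC38 tumours the difference was -1.05 at day 6, -0.82 at day 12 and -0.43 at day 18, all without overlap. The nearest Nrp1-deleted and control arrays read 5.01 and 5.05 at day 12, and 4.65 and 4.66 at day 18. The early B16 arrays went the other way, with 4.26 and 4.10 in Nrp1-deleted mice, against 3.71 and 3.66 in control mice. This +0.49 was without overlap, a pattern that 21.2% of all genes shared there, and at B16 day 12 the arrays overlapped (+0.18). Without the B16 day 18 arrays the mean B16 difference of Tead1 was 0.334 in place of -0.47.

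**Figure D1:**
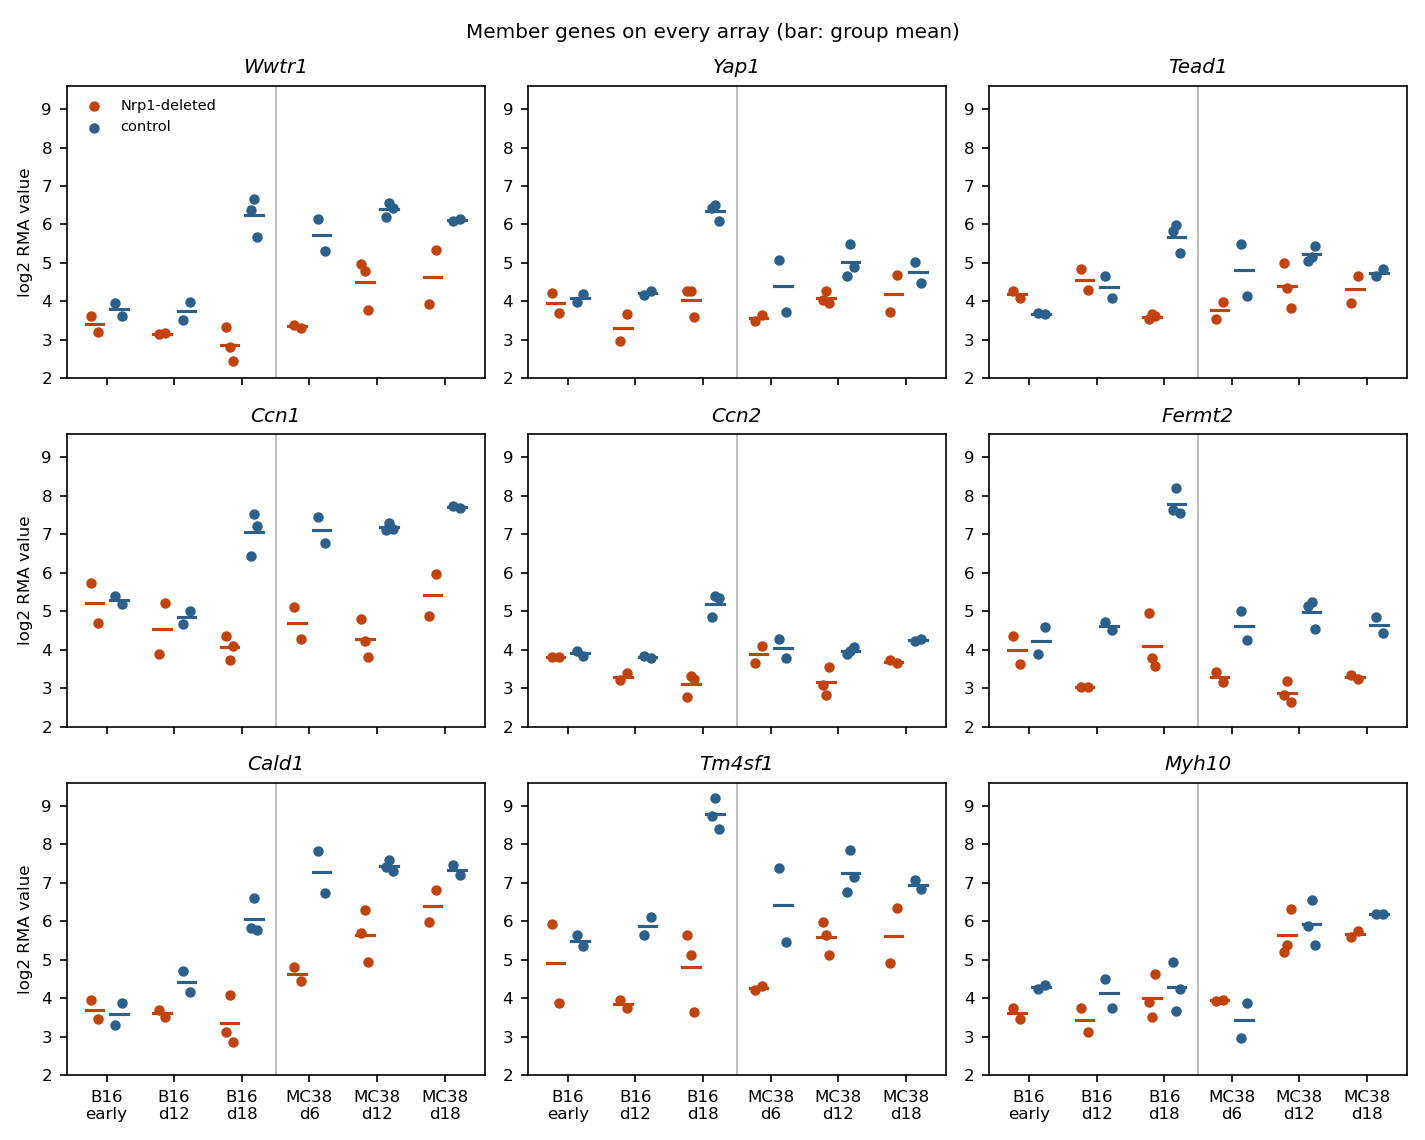
Log2 values of the 9 genes (one panel each) on every array, by tumour and day on the x axis, with Nrp1-deleted arrays in orange left of control arrays in blue and a bar at each group mean. B16 day 18 and MC38 day 12, MC38 days 6 and 18, and the B16 early and day 12 arrays are separate normalization sets. Wwtr1 is lower in the orange group in all 6 positions, and Myh10 rises between MC38 day 6 and day 18 in both colours.

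Ccn1 (chr3:145646971-145649985) encodes CYR61, a secreted matrix protein that binds integrins and is among the best known YAP/TAZ targets. Every MC38 comparison was without overlap. At MC38 day 6, Ccn1 read 5.12 and 4.29 in Nrp1-deleted mice, against 7.44 and 6.78 in control mice. At day 12 it read 4.81, 4.22 and 3.82 in Nrp1-deleted mice, against 7.11, 7.29 and 7.14 in control mice. At day 18 it read 4.87 and 5.97 in Nrp1-deleted mice, against 7.74 and 7.69 in control mice. The lowest control array in MC38 tumours (6.78) was above the highest Nrp1-deleted array (5.97). The mean MC38 difference of -2.53 was the largest among the 9 genes in that tumour. In B16 tumours the groups parted only at day 18, with 4.37, 3.73 and 4.11 in Nrp1-deleted mice, against 6.45, 7.54 and 7.23 in control mice. At the early B16 time and at day 12 they overlapped, with differences of -0.07 and -0.29.

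Ccn2 (chr10:24595442-24598683) encodes CTGF, the close relative of CCN1, and was dim by comparison with its own day 18 B16 controls. It read 2.77, 3.33 and 3.24 in Nrp1-deleted B16 tumours at day 18, against 4.85, 5.39 and 5.35 in control B16 tumours, a difference of -2.08. Elsewhere its differences lay between -0.81 and -0.08, and in MC38 its mean difference was -0.51. Only 5 of 14 Nrp1-deleted arrays and 13 of 14 control arrays read above their array's median for Ccn2. The small differences outside B16 day 18 were thus near the bottom of the measured range.

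Fermt2 (chr14:45458792-45530310) encodes kindlin-2, which activates integrins and joins them to actin. In B16 tumours at day 18 it read 4.95, 3.78 and 3.57 in Nrp1-deleted mice, against 7.64, 8.21 and 7.55 in control mice. The difference was -3.70. Since the Nrp1-deleted values of 3.78 and 3.57 lie near background, no fold is given for it. At B16 day 12 it read 3.03 on both Nrp1-deleted arrays, against 4.72 and 4.52 on control arrays. At MC38 day 12 it read 2.82, 3.20 and 2.64 in Nrp1-deleted mice, against 5.13, 5.23 and 4.55 in control mice. It read above the array median on 4 of 14 Nrp1-deleted arrays and on 14 of 14 control arrays. The early B16 arrays overlapped, at 4.37 and 3.63 in Nrp1-deleted mice, against 3.88 and 4.59 in control mice.

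Tm4sf1 (chr3:57285611-57387736) encodes a small membrane protein with 4 membrane spans that gathers in cell protrusions and at integrin contacts. On its brightest probe set it had the largest single difference of the set. In B16 tumours at day 18 it read 5.65, 5.12 and 3.65 in Nrp1-deleted mice, against 8.73, 9.21 and 8.39 in control mice. The difference was -3.97. Since the Nrp1-deleted value of 3.65 lies near background, no fold is given for it. At B16 day 12 it read 3.96 and 3.73 in Nrp1-deleted mice, against 5.63 and 6.10 in control mice. Its early B16 arrays overlapped, and the Nrp1-deleted pair there were far apart, at 5.93 and 3.88, against 5.63 and 5.35 in control mice. In MC38 tumours the differences were -2.15, -1.67 and -1.33 at days 6, 12 and 18, without overlap.

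Cald1 (chr6:34598495-34775469) encodes caldesmon, which binds actin and tropomyosin and regulates myosin. At MC38 day 6 it read 4.82 and 4.44 in Nrp1-deleted mice, against 7.83 and 6.72 in control mice (-2.64). At MC38 day 18 it read 5.98 and 6.82 in Nrp1-deleted mice, against 7.47 and 7.19 in control mice (-0.93). MC38 controls stayed near one level while Nrp1-deleted arrays stood higher at the later day. In B16 tumours Cald1 differed by -2.70 at day 18, by -0.83 at day 12 and by 0.11, with overlap, at the early time.

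Myh10 (chr11:68691915-68816626) encodes the heavy chain of nonmuscle myosin IIB and differed from the other 8 genes in its pattern. It was lower without overlap in Nrp1-deleted mice in 3 combinations: early B16 (-0.69), B16 day 12 (-0.70) and MC38 day 18 (-0.52). At B16 day 12 it read 3.74 and 3.11 in Nrp1-deleted mice, against 4.5 and 3.74 in control mice. The groups there all but touched. At MC38 day 6 it was higher, with 3.92 and 3.96 in Nrp1-deleted mice, against 2.97 and 3.88 in control mice (+0.52, without overlap, as for 16.2% of all genes). At B16 day 18, where the other 8 genes differed most, it read 3.90, 3.51 and 4.62 in Nrp1-deleted mice, against 4.95, 3.66 and 4.23 in control mice. Those groups overlapped, at -0.27.

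Counted over the combinations, 3 of the 9 genes were lower without overlap in early B16 tumours, where 22.9% of all genes were. The count was 7 of 9 at B16 day 12 (24.1% of all genes) and 8 of 9 at B16 day 18 (15.8%). In MC38 tumours it was 7 of 9 at day 6 (25.9%), 8 of 9 at day 12 (17.1%) and 8 of 9 at day 18 (32.6%). The genes were chosen on this contrast, so nothing is read from these counts. The median difference of the 9 genes was -0.12, -0.70 and -2.70 at the 3 B16 times and -1.33, -1.67 and -0.93 at the 3 MC38 times. Over the whole of each tumour it was -1.12 in B16 and -1.59 in MC38, against 0.01 and -0.06 for all genes. Without the B16 day 18 arrays the B16 median was -0.483, and with the mean of all probe sets per gene the MC38 median was -0.761.

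**Figure D2:**
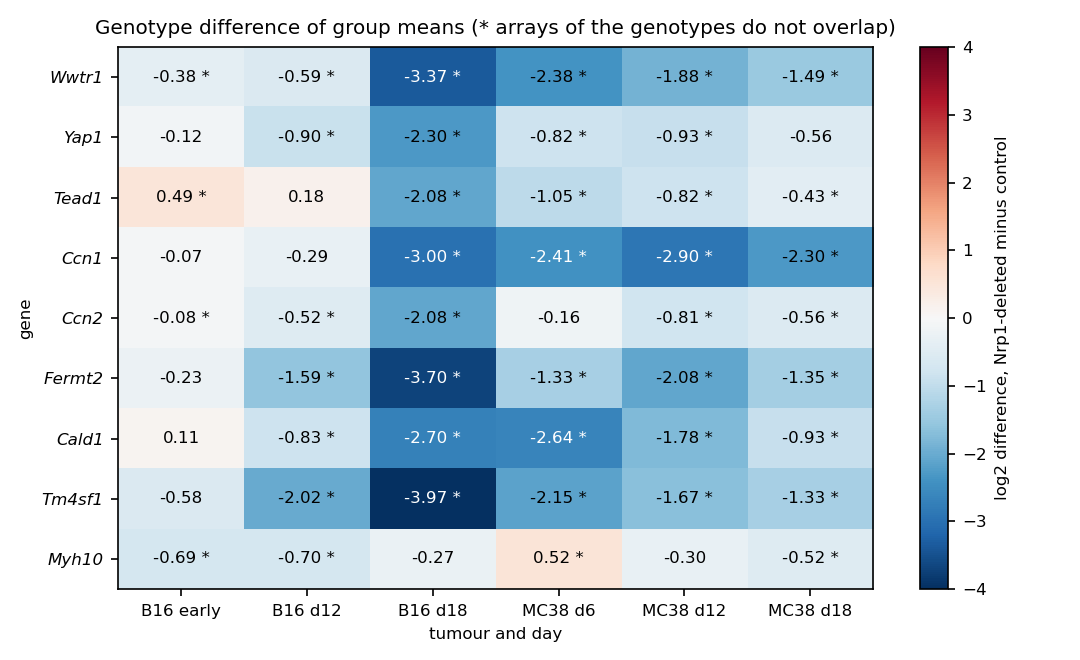
Log2 difference of group means, Nrp1-deleted minus control, for each of the 9 genes (rows) in each tumour and day (columns); blue is lower and red higher in Nrp1-deleted mice, and an asterisk marks groups whose arrays do not overlap. The B16 day 18 column runs from -3.97 (Tm4sf1) to -0.27 (Myh10), and the early B16 column lies between -0.69 and 0.49.

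Marker genes of other cell types had lower values in some of the same groups. The 9 melanocytic markers, which B16 melanoma cells express, averaged 5.96 to 6.87 on Nrp1-deleted arrays at B16 day 18, against 9.59 to 10.16 on control arrays. There 9 of 9 were lower without overlap, where 15.8% of all genes were. At B16 day 12 they averaged 5.10 to 5.94 on Nrp1-deleted arrays, against 7.28 to 7.37 on control arrays, again 9 of 9 (24.1% of all genes). At the early B16 time they averaged 6.81 to 7.77 on Nrp1-deleted arrays, against 7.0 to 7.2 on control arrays. Then 0 of 9 were lower without overlap (22.9% of all genes). These 3 shifts were -3.28, -1.80 and 0.19. The members' medians at the same B16 times were -2.7, -0.7 and -0.12, and a link between them was not tested. On MC38 arrays the melanocytic markers averaged 3.58 to 3.83, and 2 or 3 of the 9 read above the array median.

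In MC38 tumours some fibroblast-associated matrix genes were lower in Nrp1-deleted mice. Col3a1, a fibrillar collagen gene, averaged 8.2, 7.58 and 8.90 in Nrp1-deleted mice at days 6, 12 and 18, against 10.12, 10.52 and 10.58 in control mice. Dcn, which encodes the matrix proteoglycan decorin, averaged 6.10, 6.27 and 7.39 in Nrp1-deleted mice, against 8.10, 8.96 and 8.90 in control mice. The other bright genes of the list did not follow. Thy1, a surface protein that T cells also carry, was higher in Nrp1-deleted MC38 tumours by 0.84 ± 0.21 (limma adjusted p = 0.00728), and Pdpn, which encodes podoplanin, differed by -0.25 ± 0.22 (adjusted p = 0.502). Pdgfra, at 3.10 to 3.66 in MC38 groups, Pdgfrb, at 2.85 to 3.51, and Fap, at 3.11 to 3.67, were near background. Col1a1, Lum and Col1a2 differed by -0.3, -0.2 and -0.02 in MC38 and were not called by limma. The whole list of 10 fibroblast markers averaged 4.90 to 5.65 on Nrp1-deleted MC38 arrays, against 5.66 to 5.98 on control MC38 arrays. Of the 10, 4, 3 and 5 were lower without overlap at MC38 days 6, 12 and 18. Over all genes, 25.9%, 17.1% and 32.6% were. In B16 tumours Col3a1 was well above background in day 18 controls only. At that day it averaged 3.92 in Nrp1-deleted mice, against 7.05 in control mice. Over the 3 B16 days limma called Pdpn (-2.18 ± 0.22, adjusted p = 8.63e-08), Col3a1 (-1.03 ± 0.23, adjusted p = 0.00175) and Dcn (-0.58 ± 0.16, adjusted p = 0.00971) lower. It called 0 of the 10 higher, where 12.3% of all genes were called lower and 10.3% higher. The 10 fibroblast markers averaged 3.88 to 4.15 on Nrp1-deleted arrays at B16 day 18, against 4.55 to 4.85 on control arrays. There 4 of 10 were lower without overlap, where 15.8% of all genes were.

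The 9 macrophage markers were lower in Nrp1-deleted B16 tumours, with shifts of -0.94, -3.46 and -1.64 at the early time, day 12 and day 18, and shifted by -0.06, -0.13 and -0.45 at MC38 days 6, 12 and 18. The endothelial, mural, epithelial and platelet lists averaged 3.01 to 4.18 on every array and shifted by -0.56 to 0.19. Some single genes of these lists were called by limma. In B16 these were Ppbp (-2.30 ± 0.36, adjusted p = 3.91e-05), Kdr (-0.51 ± 0.15, adjusted p = 0.0175) and Epcam (0.63 ± 0.19, adjusted p = 0.017). In MC38 it was Pecam1 (1.10 ± 0.16, adjusted p = 3.26e-05). The pan-leukocyte markers were 0.08 to 0.28 higher in Nrp1-deleted mice in all 6 combinations. The part of these cell types in the members' values was not tested. In such mixed samples, fewer cells of a type and less RNA per cell cannot be told apart.

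**Figure D3:**
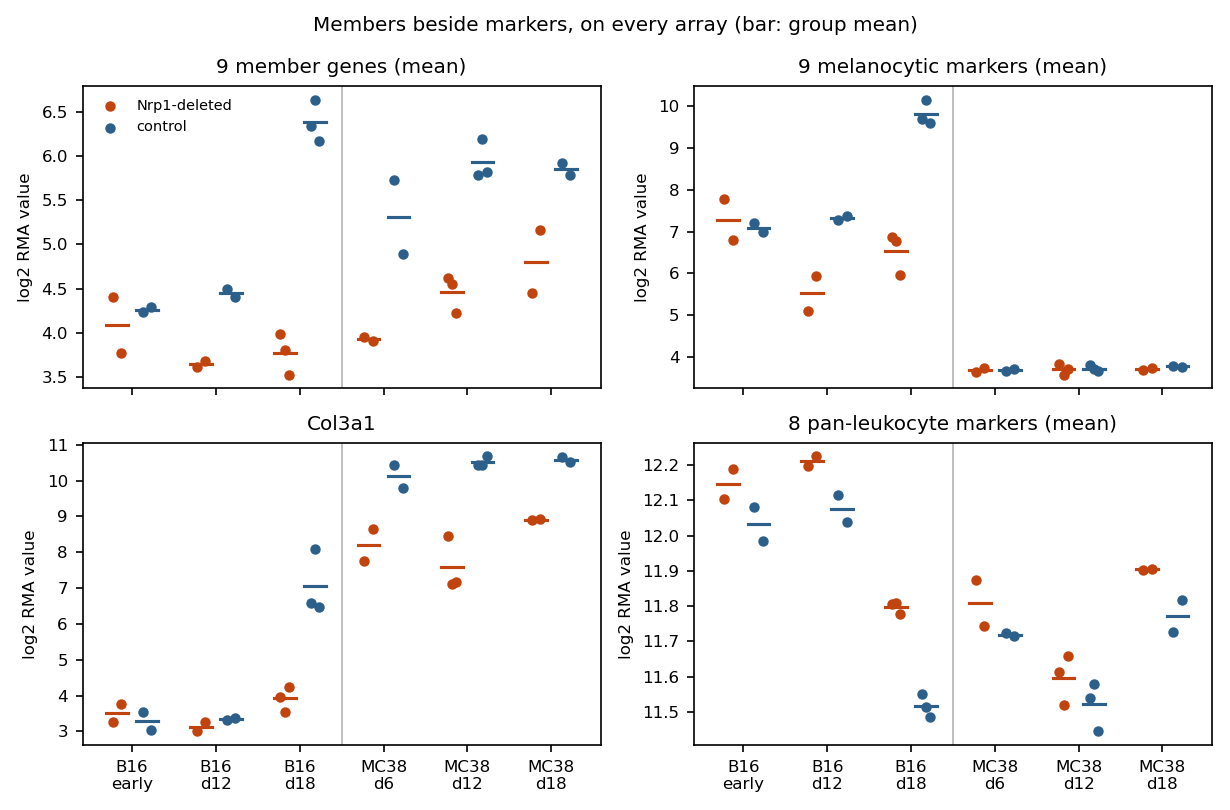
Mean log2 value on every array of the 9 genes, of 9 melanocytic markers and of 8 pan-leukocyte markers, and the value of Col3a1, with Nrp1-deleted arrays in orange left of control arrays in blue and a bar at each group mean; the vertical scale differs between panels. The B16 day 18 controls are highest for both the 9 genes (6.17 to 6.64) and the melanocytic markers (9.59 to 10.16), while the MC38 controls are high for the 9 genes (4.90 to 6.19) and for Col3a1. Col3a1 is a single gene of the 10 fibroblast markers. In Nrp1-deleted MC38 tumours limma called 2 of those 10 lower and 1 higher, where 12.3% of all genes were called lower and 6.97% higher.

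The genotype difference was also read on the 12 other probe sets of these genes, which belong to 6 of them; Tead1, Ccn2 and Myh10 have 1 probe set each. Of the 12, 10 were lower on average in Nrp1-deleted B16 tumours and 10 in Nrp1-deleted MC38 tumours. The second Ccn1 probe set differed by -0.48 in B16 and -1.42 in MC38, against -1.12 and -2.53 for the brightest. The other Wwtr1 probe sets differed by -0.44 and -0.45 in B16, and by -0.85 and -0.89 in MC38. The other Tm4sf1 probe sets, at mean levels of 3.23 and 3.06, differed by -0.36 and -0.26 in B16. In MC38 they differed by -0.35 and -0.22, so the large Tm4sf1 differences rest on the brightest probe set. A second Fermt2 probe set differed by -1.33 in B16 and -0.24 in MC38, and another, never above the array median, by 0.04 and 0.01. The second Yap1 probe set differed by -0.37 in B16 and -0.25 in MC38, against -1.11 and -0.77 for the brightest. It read above the array median on 2 of 28 arrays. The other Cald1 probe sets differed by -0.42, -0.58, -0.13 and 0.2 in B16, against -1.14 for the brightest. In MC38, in the same order, they differed by -1.21, -2.05, 0.14 and -0.21, against -1.79. The brightest Ccn1 and Cald1 probe sets carry a suffix (_x and _s) that marks probes able to bind related transcripts.

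The difference between days is another contrast than the genotype difference named in the choice of genes, although the choice was made with earlier results of these arrays known. It was tested with limma across all 17097 genes, within one normalization set at a time. In MC38 tumours, Myh10 rose between day 6 and day 18. It read 5.58 and 5.75 at day 18 in Nrp1-deleted mice, against 3.92 and 3.96 at day 6. In control mice it read 6.18 and 6.19 at day 18, against 2.97 and 3.88 at day 6. The day 18 arrays of both genotypes stood above every day 6 array. The rise was 2.24 ± 0.31 (SE), limma adjusted p = 3.15e-05, and it held under all 16 alternatives tried, at 2.01 to 2.47 with adjusted p of at most 0.000504. It was 1.72 ± 0.44 in Nrp1-deleted mice alone (adjusted p = 0.0383) and 2.76 ± 0.44 in control mice alone (adjusted p = 0.000225).

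Cald1 rose by 0.91 ± 0.30 on the mean of both genotypes (limma adjusted p = 0.0485), a call that 7 of 16 alternatives kept. In Nrp1-deleted mice the rise was 1.77 ± 0.43 (adjusted p = 0.029), and in control mice the difference was 0.06 ± 0.43 (adjusted p = 0.97). The difference between those effects, 1.71 ± 0.60, did not pass the test (adjusted p = 0.45). Myh10 and Cald1 were 2 of the 9 genes called higher at day 18, where 7.31% of all genes were, and 0 of 9 were called lower (5.54% of all genes). At an unadjusted p under 0.05 limma found 5 of the 9. Wwtr1 differed by 0.83 ± 0.29 (adjusted p = 0.0627), Tm4sf1 by 0.95 ± 0.44 (adjusted p = 0.188) and Ccn1 by 0.66 ± 0.31 (adjusted p = 0.193). Ccn2 and Fermt2 differed by 0.01 each, with SEs of 0.17 and 0.26. The median over the 9 genes was 0.66, against 0.017 for all genes.

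The count depended on single arrays. Without the first control array of MC38 day 6, which carried the higher values of most members (Tead1 5.49 against 4.14 on the other array, Tm4sf1 7.37 against 5.46), 5 genes were called higher: Cald1, Myh10, Tm4sf1, Wwtr1 and Yap1. Leaving out each array in turn gave 1 to 5 calls. Over the same days in Nrp1-deleted mice alone, 2 of the 9 genes were called higher (1.19% of all genes), and in control mice alone 1 (4.4%). On the mean of both genotypes, macrophage markers had a median difference of 0.54 between these days with 2 of 9 called higher. Fibroblast markers had a median of 0.01 with 1 of 10 called higher, where 7.31% of all genes were.

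**Figure D4:**
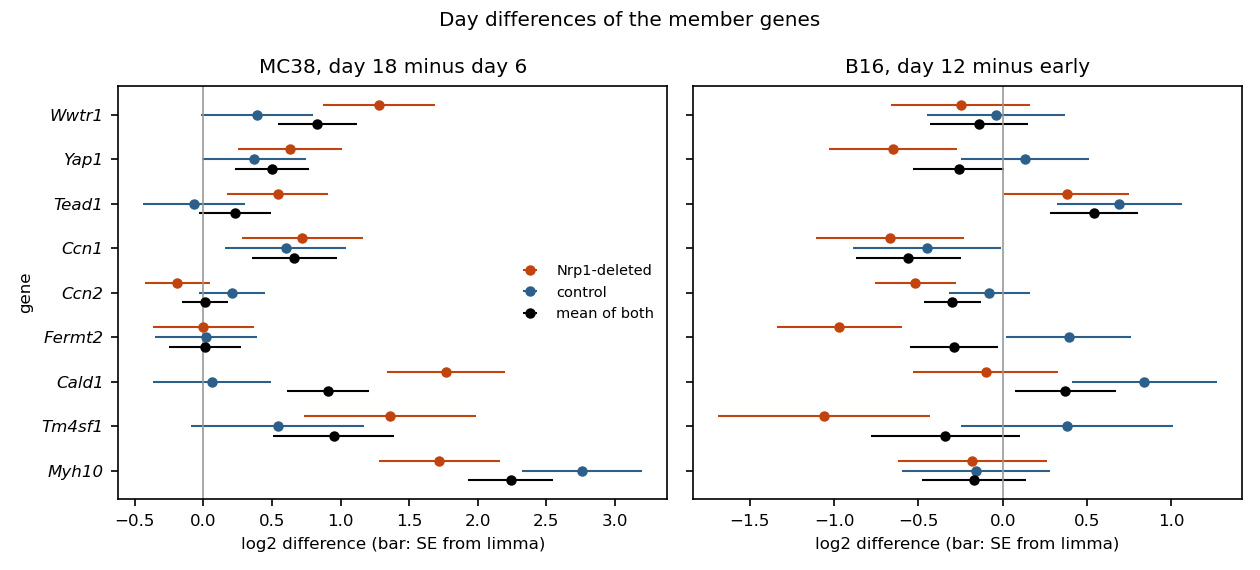
Log2 difference between days for each gene with its SE from limma, in MC38 tumours (day 18 minus day 6, left) and B16 tumours (day 12 minus early, right), for Nrp1-deleted mice (orange), control mice (blue) and the mean of both (black). Myh10 lies at 2.24 in MC38 tumours, and the black points in B16 tumours lie between -0.56 and 0.54.

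In B16 tumours, limma called 0 of the 9 genes between the early time and day 12, nor did any have an unadjusted p under 0.05, whereas 23.2% of all genes were called. The 9 differences ran from -0.56 (Ccn1) to 0.54 (Tead1), with SEs of 0.17 to 0.44. The smallest adjusted p, 0.163, belonged to Tead1, and it was 0.0447 when only the 4 groups compared were fitted. On the same mean of both genotypes, 3 of 9 macrophage markers were called higher (13.1% of all genes), with a median of 0.57. Of those 9, 2 were called lower and 0 higher in Nrp1-deleted mice alone (median -0.52), against 9 higher in control mice alone (median 1.78). Over all genes, 7.09% were lower and 9.14% higher in Nrp1-deleted mice alone, and 9.14% were higher in control mice alone. No difference of the genotype effect between days passed the test either. That test is built from the genotype differences for which several members were chosen, so no conclusion is drawn from it. In MC38 tumours 0 of the 9 genes passed the test of the genotype difference at day 18 minus that at day 6, with 1 at an unadjusted p under 0.05 (0.0819% of all genes called). In B16 tumours 0 passed for day 12 minus early, with 1 at an unadjusted p under 0.05 (6.29% of all genes called). The B16 values ran from -1.44 to -0.01, with a median of -0.44, against 0.029 for all genes. The MC38 values ran from -1.03 to 1.71, with a median of 0.26, against 0.002 for all genes. Nothing is read from the signs of these values. The value for Fermt2 was -1.36 ± 0.53 (adjusted p = 0.149) and for Tm4sf1 -1.44 ± 0.88 (adjusted p = 0.438). With 2 arrays per group the SEs of these terms were 0.34 to 0.88, so differences of that size could not be seen.

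The rest of the pathway was taken from 6 lists of 96 genes in all, 85 of them measured, with the 9 members left out. The genotype effect over the 3 days of each tumour was tested for these with limma. In B16 tumours 7 were higher and 19 lower in Nrp1-deleted mice, 30.6% of the 85, where 22.6% of all genes were called (10.3% higher and 12.3% lower). In MC38 tumours 14 were higher and 11 lower, 29.4% of the 85, where 19.3% of all genes were called (6.97% higher and 12.3% lower). Their median differences were -0.01 in B16 and -0.05 in MC38. The B16 counts were 12 higher with array weights, 4 higher without the second Nrp1-deleted array of the early time, and 4 higher and 10 lower without the B16 day 18 arrays. All p-values in the next paragraphs are limma's, adjusted over all genes. The lists were drawn up with earlier results of these arrays known.

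Among 17 Hippo kinases and upstream regulators, 1 was higher and 4 were lower in Nrp1-deleted B16 tumours, and 4 were higher and 3 lower in Nrp1-deleted MC38 tumours. Amotl1, an angiomotin that binds YAP at cell junctions and in the cytoplasm, fell by 1.81 ± 0.21 in B16 (adjusted p = 6.08e-07) and by 1.12 ± 0.21 in MC38 (adjusted p = 0.00048). At B16 day 18 it read 3.41 to 4.67 in Nrp1-deleted mice, against 7.33 to 8.14 in control mice. Stk4, the kinase MST1, rose by 0.33 ± 0.07 in B16 (adjusted p = 0.000688) and by 0.56 ± 0.07 in MC38 (adjusted p = 3.72e-06). Its level was high and its range narrow, for example 9.38 to 9.42 in Nrp1-deleted MC38 tumours at day 18, against 8.66 to 8.80 in control MC38 tumours. In B16 the MST partner Sav1 fell by 0.43 ± 0.06 (adjusted p = 3.63e-06) and the scaffold Wwc2 by 0.58 ± 0.15 (adjusted p = 0.00587). In MC38 the kinases Taok1 (0.70 ± 0.08) and Map4k4 (0.51 ± 0.08) and the LATS co-activator Mob1b (0.42 ± 0.08) rose, with adjusted p of 2.22e-06, 7.03e-05 and 0.000362. All of these MC38 calls were kept in 22 of 22 alternatives, and those of Stk4 and Wwc2 in B16 were lost without the B16 day 18 arrays.

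Of the 6 other TEAD factors and cofactors, 1 fell in each tumour. Tead2 fell by 0.68 ± 0.12 in MC38 (adjusted p = 0.000283), where it read 3.62 to 4.06 in Nrp1-deleted mice at day 12, against 4.82 to 5.08 in control mice. Vgll3, a TEAD cofactor, fell by 0.94 ± 0.16 in B16 (adjusted p = 0.000122), but differed by 0.02 without the B16 day 18 arrays. Tead3 and Tead4 were not called in either tumour, with differences of -0.25 to 0.04.

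Among 19 other YAP/TAZ target genes, 2 rose and 4 fell in B16, and 1 rose and 4 fell in MC38. In MC38 the falls included Ankrd1 (-1.18 ± 0.23, adjusted p = 0.000812), which encodes a muscle ankyrin-repeat protein, and the growth-factor binding protein Igfbp3 (-1.09 ± 0.16, adjusted p = 3.81e-05). Ankrd1 read 3.07 to 3.59 in Nrp1-deleted mice at MC38 day 6, against 4.42 to 5.68 in control mice. In B16 the falls included Myof, a membrane repair protein (-1.32 ± 0.16, adjusted p = 1.41e-06), and F3, which encodes tissue factor (-1.34 ± 0.30, adjusted p = 0.00188). Myof read 4.34 to 4.52 in Nrp1-deleted mice at B16 day 12, against 7.27 to 7.34 in control mice, while at B16 day 18 it read 5.25 to 6.70 in Nrp1-deleted mice, against 6.34 to 6.95 in control mice. Ajuba, a LIM protein of cell junctions, rose by 0.67 ± 0.19 in B16 (adjusted p = 0.0109), a call lost without the second Nrp1-deleted array of the early time (adjusted p = 0.0532). Its averages were 5.36 and 5.93 in Nrp1-deleted mice at the early time and day 12, against 4.32 and 4.54 in control mice, but 4.97 at day 18 in Nrp1-deleted mice, against 5.38 in control mice. Crim1, a membrane protein that binds BMPs, rose in both tumours, by 0.47 ± 0.12 in B16 (adjusted p = 0.00648) and by 0.52 ± 0.12 in MC38 (adjusted p = 0.0045). Without the B16 day 18 arrays the B16 calls of F3 and Crim1 were lost.

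Of 20 integrin adhesion components, 1 rose and 4 fell in B16, while 3 rose and 0 fell in MC38. The B16 falls were the parvin gene Parvb (-1.64 ± 0.13, adjusted p = 4.26e-09), the tensin gene Tns3 (-1.19 ± 0.12, adjusted p = 5.97e-08), the integrin subunit gene Itgb5 (-1.13 ± 0.18, adjusted p = 3.91e-05) and Vcl, which encodes vinculin (-0.90 ± 0.11, adjusted p = 2.43e-06). These 4 calls were kept in all 23 alternatives, none of which left out all B16 day 12 arrays. At B16 day 12 the differences of Parvb, Tns3, Itgb5 and Vcl were -2.73, -2.38, -2.12 and -1.26. At B16 day 18 they were -1.73, -0.59, -1.17 and -1.04. Parvb read 3.31 to 3.37 in Nrp1-deleted mice at B16 day 12, against 5.98 to 6.17 in control mice. In MC38 the integrin genes Itgb3 (1.03 ± 0.19, adjusted p = 0.000414), Itgb2, the leukocyte beta chain (0.38 ± 0.06, adjusted p = 0.000111), and Itgav (0.27 ± 0.06, adjusted p = 0.00376) rose, the last a call lost with the mean of its probe sets. Fermt3, the kindlin of blood cells, differed by 0.02 ± 0.06 in B16 and by -0.07 ± 0.06 in MC38 (adjusted p = 0.852 and 0.49).

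Of 20 actomyosin and actin-binding genes, 3 rose and 5 fell in B16, and 6 rose and 3 fell in MC38. The tropomyosin genes Tpm2 (-1.71 ± 0.17, adjusted p = 3.25e-07) and Tpm1 (-1.0 ± 0.12, adjusted p = 3.53e-06), whose products share actin filaments with caldesmon, fell in MC38. Tpm2 read 5.31 to 5.74 in Nrp1-deleted mice at MC38 day 12, against 7.41 to 7.83 in control mice, and stood at 3.66 to 4.38 on all B16 arrays. Actn1, which encodes alpha-actinin, fell by 0.43 ± 0.10 in MC38 (adjusted p = 0.00376), a call lost with the mean of its probe sets. In B16 the calponin gene Cnn3 fell by 0.96 ± 0.13 (adjusted p = 3.74e-06), while in MC38 it rose by 0.37 ± 0.13 (adjusted p = 0.0458), a call lost under 14 of 22 alternatives. The B16 difference of Cnn3 was -2.35 at day 12, against -0.04 early and -0.49 at day 18. The light chain gene Myl9 fell in B16 by 0.50 ± 0.13 (adjusted p = 0.00456). Calponin 2, encoded by Cnn2, rose in both, by 0.36 ± 0.07 in B16 (adjusted p = 0.000325) and by 0.34 ± 0.07 in MC38 (adjusted p = 0.000915). Myh9, the myosin IIA heavy chain gene, rose by 0.32 ± 0.06 in B16 (adjusted p = 0.000156) and by 0.18 ± 0.06 in MC38 (adjusted p = 0.0272). The B16 calls of Myh9 and Myl9 were lost without the B16 day 18 arrays, and the MC38 call of Myh9 under 9 of 22 alternatives.

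Among the 6 measured CCN relatives and tetraspan genes, 1 fell in each tumour. Ccn4 fell by 0.97 ± 0.16 in MC38 (adjusted p = 0.000183) and differed by -0.21 ± 0.16 in B16 (adjusted p = 0.44). Ccn3 fell by 0.37 ± 0.10 in B16 (adjusted p = 0.00703), at a mean level of 2.98 that is below the array median and in a call lost without the B16 day 18 arrays. Ccn3 differed by -0.02 ± 0.10 in MC38 (adjusted p = 0.916). Ccn5 was not called in either tumour. Between days, 8 of the 85 pathway genes were higher and 12 lower at MC38 day 18 than at day 6, and 13 were higher and 10 lower at B16 day 12 than early. These are 23.5% and 27.1% of the 85, where 12.8% and 23.2% of all genes were called. Among them, Crim1 rose by 0.84 ± 0.16 over the MC38 days (adjusted p = 0.00104) and Map4k4 fell by 0.66 ± 0.10 (adjusted p = 0.000116), while in B16 the integrin-linked adaptor Lims1 rose by 1.08 ± 0.09 (adjusted p = 1.02e-08).

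Across the 28 arrays, with each normalization set centred on its own mean, the members tracked each other to different degrees. The correlation of a gene with the mean of the other 8 was 0.939 for Wwtr1, 0.932 for Tm4sf1, 0.893 for Ccn1, 0.876 for Yap1, 0.809 for Tead1, 0.770 for Cald1, 0.749 for Ccn2 and 0.708 for Fermt2. For Myh10 it was 0.133. Arrays of one group share their mice's genotype, tumour and day, so these values mostly describe the group pattern. This centring keeps the genotype difference for which several members were chosen. High correlations were thus in part set by the choice, and nothing is read from them. By the same measure the genes most like the mean of the 9 were Lhfp (0.977), a tetraspan gene, Serpinh1 (0.974), a collagen chaperone gene, and Cttn (0.970), which encodes the actin-binding protein cortactin. Pcolce, Bnc2, Laptm4b, Me1, Nr2f2, P3h3 and Rab34 followed at 0.927 to 0.955. Lhfp differed by 0.05, -0.60 and -3.12 at the 3 B16 times and by -1.97, -2.02 and -1.62 at the 3 MC38 times. Centred within each group of 2 or 3 arrays instead, 5 of these 10 genes (Lhfp, Serpinh1, Laptm4b, Cttn and Nr2f2) were again among the 10 most alike.

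Across the 12 groups, and so across normalization sets and without a test, the group in which a gene stood highest was a control group for all 9 genes. Several of these genes were chosen for lower values with Nrp1 deletion, so nothing is read from which genotype stood highest or lowest. For Yap1, Tead1, Ccn2, Fermt2 and Tm4sf1 the highest group was the B16 day 18 control. The Yap1 mean there was 6.34 ± 0.21 (SD, n = 3), against 5.02 ± 0.43 (n = 3) in the next group, MC38 day 12 controls, and Fermt2 stood further apart, at 7.80 ± 0.35 against 4.97 ± 0.37 in the same groups. For Tead1 these groups were closer, at 5.69 ± 0.39 and 5.22 ± 0.21. Wwtr1 and Cald1 were highest in MC38 day 12 controls. Wwtr1 averaged 6.39 ± 0.19 there, 6.24 ± 0.51 in B16 day 18 controls and 6.12 ± 0.05 in MC38 day 18 controls. The MC38 day 18 controls lie in another normalization set, so nothing is read from that order. Cald1 averaged 7.43 ± 0.14, 7.33 ± 0.20 and 7.27 ± 0.79 in MC38 controls of days 12, 18 and 6, and the arrays of these groups overlapped. Ccn1 and Myh10 were highest in MC38 day 18 controls, at 7.72 ± 0.03 and 6.18. Lowest of all for Wwtr1, Tead1, Ccn1, Ccn2 and Cald1 was the Nrp1-deleted B16 group of day 18.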

How the data were processed

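RNA of sorted CD45+ cells (28 arrays, 12 groups) was amplified by a two-cycle method, per the labels' protocols. The deposited log2 expression values were computed by RMA (software: Partek 6.6), per the submitters' processing notes. The array distributions show 3 sets that appear to have been normalized apart, so no test crosses them. No counts exist, so the number of arrays limits precision. Of 45141 probe sets, 28898 name 1 gene in GEO's platform annotation, 551 name several and 15692 none here; the brightest probe set stood for each of 17097 genes. limma 3.58.1 (R 4.3.3) fitted all 12 group means with an intensity trend, Benjamini-Hochberg adjustment and a threshold of 0.05, and the code was tested on simulated data. The genotype effect of a tumour is the mean over its days.

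The members, lists and tests were chosen with earlier results of these data known. Named genes are all members, up to 4 genes per list with the smallest adjusted p in a contrast (Amotl1 is given in both tumours), family relatives of members, and the 10 genes most like the members' mean. Alternatives were other summaries of probe sets, scalings, filters, variance models, a replicate block and leaving out each array. Leaving out the B16 day 18 arrays was chosen after seeing the data. Promoter sequences are from RefSeq (GRCm38.p6); no window was found for Tead1 or Ccn2.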

Additional observations from a re-analysis of the deposited data

Results flagged for a closer look

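Tead1 was higher on both early B16 arrays of Nrp1-deleted mice than on both control arrays (0.49 on the log2 scale), while at B16 day 18 every Nrp1-deleted array was below every control array (-2.08). The difference between those times lies across normalization sets and was not tested. Within one set, the genotype effect at B16 day 12 minus that at the early time was -0.31 ± 0.52 (limma adjusted p = 0.847). Myh10 was higher on both MC38 day 6 arrays of Nrp1-deleted mice than on both control arrays (0.52), while in early B16 tumours it was lower on both (-0.69), a difference between tumours that was not tested. Within MC38, the genotype effect at day 18 minus that at day 6 was -1.03 ± 0.62 for Myh10 (limma adjusted p = 0.863).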

How the results depend on the processing

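The Myh10 rise in MC38 tumours was called under every alternative run for it. The number of members called higher between MC38 days 6 and 18 was 1 with the mean of all probe sets, with cyclic loess, with centring on the 75th percentile and without the intensity trend, because the Cald1 call was lost, and 1 to 5 when single arrays were left out. For B16 day 12 against early it was 1 when only the groups compared were fitted. The replicate block left Wwtr1 in MC38 at 0.832 with adjusted p = 0.0475. Same-numbered arrays deviated together (r above 0.1) in 2 of 14 pairs of the same tumour and day and in 7 of 48 pairs of different days, and the numbers were not taken to pair the samples. Pathway genes called higher in B16 numbered 12 with array weights and 4 without the B16 day 18 arrays, and 10 were then called lower. Leaving out single arrays gave 4 to 8 higher and 15 to 21 lower in B16, and 10 to 17 higher and 9 to 13 lower in MC38. The members' B16 median was -0.483 without the B16 day 18 arrays, and Tead1 there 0.334; the MC38 median was -0.761 with the mean of all probe sets. Signs turned, all within the error of values not called, for the MC38 day difference of Ccn2 (-0.001 with the 75th percentile) and Fermt2 (-0.004 with cyclic loess, -0.003 with the 75th percentile), and for the MC38 day-dependence of the Ccn1 genotype effect (-0.279 with the mean of all probe sets). Of the single-gene values with 1 array left out, 31 changed sign. Among MC38 day differences these gave -0.105 to 0.572 for Tead1, -0.109 to 0.138 for Ccn2 and -0.174 to 0.198 for Fermt2. The B16 day differences came to -0.856 to 0.17 for Tm4sf1 and -0.36 to 0.021 for Myh10. The MC38 day-dependence of the genotype effect was -0.42 to 0.936 for Yap1, -0.062 to 1.293 for Tead1, -0.434 to 0.662 for Ccn1, -0.392 to 0.351 for Fermt2 and -0.127 to 1.781 for Tm4sf1. In B16 it was -0.451 to 0.02 for Wwtr1, -0.885 to 0.443 for Ccn1 and -0.394 to 0.367 for Myh10. The MC38 genotype mean of Myh10 was -0.252 to 0.052. The causes of the other changes were not tested.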
